A study of Rattus norvegicus with 12 samples.

Results

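Heat shock chaperones are the proteins that fold, refold or hold other proteins in the cytosol and in mitochondria, together with the cofactors that steer them. The listed genes numbered 10: the HSP70 family member Hspa8, the HSP110 nucleotide exchange factors Hsph1 and Hspa4, the cytosolic HSP90 genes Hsp90aa1 and Hsp90ab1, the J-domain cochaperone Dnajb1, the HSP70 cofactor Bag3, the small heat shock protein Hspb1, and the mitochondrial chaperonin pair Hspd1 and Hspe1. For each gene the array row that the platform annotation pairs with that gene alone was used, or the row with the highest mean where there were several. This gave 9 genes of the 10 listed, out of 18166 genes with such a row. Hsp90aa1 was left out, because its row is also paired with the pseudogene Hsp90aa1-ps17.

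RNA was measured on 12 arrays of primary astrocytes from the cerebral cortex of Sprague-Dawley rats aged 1 day, 3 arrays in each of 4 groups. The cells had been kept without serum for 2 days, a step meant to remove microglia and meningeal cells, and the treatments lasted 3 h. The first group, siCon, received control siRNA alone. The second, siCon_IFNg, received control siRNA and interferon-γ (IFN-γ), an inflammatory cytokine. The third, siCon_IFNg_GW, received control siRNA, IFN-γ and a compound the labels call only GW. The fourth, siSHP_IFNg_GW, received siRNA against SHP (gene Nr0b2), a nuclear receptor without a DNA-binding domain, with IFN-γ and GW. All cells were therefore transfected with an siRNA, GW was given only together with IFN-γ, and SHP siRNA only together with both. The sample titles carry a number, 1, 2 or 3, that is shared by 1 array of every group. The labels do not say whether arrays of a group came from separate cultures, and the spread behind each p-value may therefore be a technical one. The study reused 4 arrays from an earlier series, and its text does not say which.

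In resting cells heat shock factor 1 (HSF1) is held inactive in complexes with chaperones. When unfolded proteins engage those chaperones, HSF1 forms trimers and binds heat shock elements, inverted repeats of a short unit, in the promoters of chaperone genes. HSP70 proteins then bind and release unfolded chains in an ATP cycle that J-domain proteins start and that exchange factors of the HSP110 and BAG families complete. In astrocytes the small heat shock proteins are known as proteins that rise in reactive and stressed cells.

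All values are log2 expression as deposited, so a difference of 1 is a doubling. A gene is said to have risen or fallen where limma, a linear model that shares information on the spread across genes, gave an adjusted p under 0.05, with the Benjamini-Hochberg method applied over all 18166 genes. Errors of differences are limma's standard errors (SE). Where the title number was added to the model, so that arrays of the same number were compared with each other, this is called the replicate block. Whole-array medians ran from 5.51 to 5.67. Olfactory and vomeronasal receptor genes, which astrocytes are not known to use, marked the background. The 95th percentile of 1344 of them was 5.34, and each of the 9 chaperones lay above it on every array. Nr0b2, the target of the SHP siRNA, lay between 4.59 and 5.12 on the arrays, under that background in every group, so the arrays could not check the knockdown. The 7 astrocyte markers measured had a mean level of 9.84 to 10.31 over the arrays, and none was at or under background.

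The promoters are described first, because the chaperones share a known regulator. RefSeq windows of assembly GRCr8, from 250 bases before to 50 bases after the annotated start of transcription, were found for all 9 genes. A 2-unit heat shock element was searched as GAANNTTC or TTCNNGAA, each of which reads the same on the other strand. A 3-unit element was either run with its first unit repeated after another NN, and the pair of 3-unit forms are each other's reverse complement, so both strands were covered. Every 3-unit match contains 2-unit matches. The following stretches of 80 bases, 5′ to 3′ on the strand of the gene, show where most of the letters lie, with the matches in capitals. The first 4 hold 3-unit matches and the last 3 hold 2-unit matches.
Hsph1, chr12:10427288-10427367, plus strand: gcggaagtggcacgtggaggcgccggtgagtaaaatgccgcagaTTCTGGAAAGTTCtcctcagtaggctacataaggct
Hspa8, chr8:50080267-50080346, plus strand: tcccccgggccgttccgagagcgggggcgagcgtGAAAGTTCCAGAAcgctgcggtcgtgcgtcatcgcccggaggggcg
Hspa8, chr8:50080425-50080504, plus strand: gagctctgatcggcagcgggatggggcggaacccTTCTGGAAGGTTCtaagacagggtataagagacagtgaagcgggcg
Hspe1, chr9:64084230-64084309, plus strand: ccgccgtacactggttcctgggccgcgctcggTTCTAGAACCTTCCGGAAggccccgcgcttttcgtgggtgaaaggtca
Dnajb1, chr19:41431142-41431221, minus strand: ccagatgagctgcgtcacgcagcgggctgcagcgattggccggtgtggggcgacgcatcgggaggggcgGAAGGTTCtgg
Hspb1, chr12:26432378-26432457, minus strand: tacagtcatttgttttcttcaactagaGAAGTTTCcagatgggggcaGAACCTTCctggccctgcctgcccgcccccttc
Bag3, chr1:192533291-192533370, plus strand: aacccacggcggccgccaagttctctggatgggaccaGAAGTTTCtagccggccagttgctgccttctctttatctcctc

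A 3-unit element was found in the windows of 4 of the 9 chaperones, against 0.592% of the 16050 windows of genes on the array and 0.798% of all 33469 windows. In Hsph1 it spanned bases -36 to -24, just before the start. A separate 2-unit match of Hsph1, at -105 to -98, lies outside the stretch printed. Hspa8 had 2 of them, at -213 to -201 and at -55 to -43. Hspd1 and Hspe1 face away from each other on chromosome 9, with starts 290 bases apart, and share one 18-base run of overlapping matches. That run lies at -65 to -48 of Hspe1 and at -242 to -225 of Hspd1, so these promoters are not independent. Counting 2-unit matches as well, 7 of the 9 windows held at least 1, against 13.6% of the windows of genes on the array and 15.9% of all windows. Dnajb1 had 2-unit matches at -11 to -4 and at 18 to 25, Hspb1 at -129 to -122 and -109 to -102, and Bag3 at -132 to -125. Hsp90ab1 and Hspa4 had no match in this window. A match says only that the letters are there; binding was not measured.

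**Figure D1:**
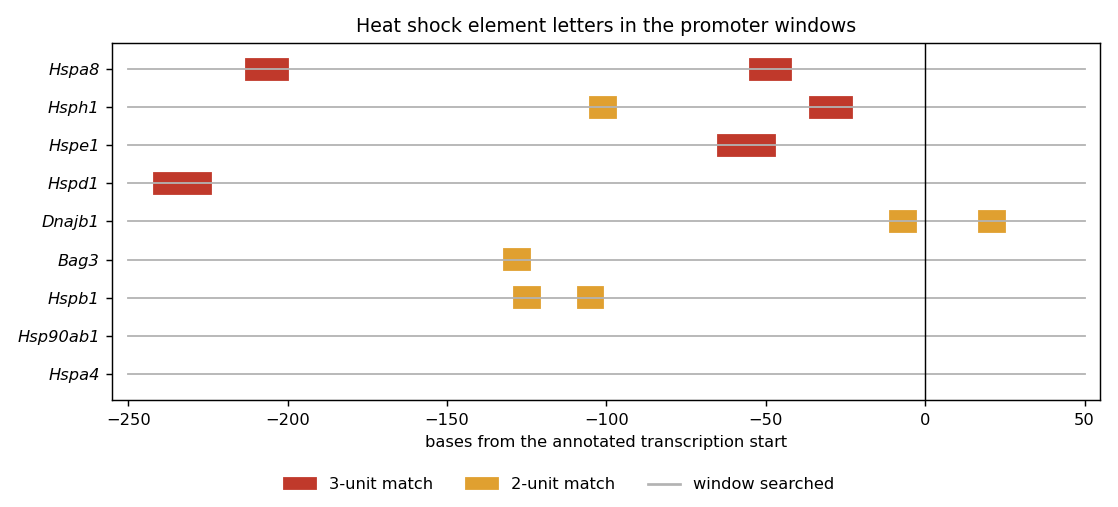
Positions of heat shock element letters in the promoter windows of the 9 chaperones, in bases from the annotated start of transcription (vertical line). Red boxes are 3-unit matches and amber boxes 2-unit matches; 4 genes hold a 3-unit match, 3 hold only 2-unit matches and the windows of Hsp90ab1 and Hspa4 are empty.

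No chaperone passed the test for IFN-γ alone. None of the 9 rose or fell in siCon_IFNg against siCon, where 0.121% of all genes did, and the smallest unadjusted p among them was 0.22. With the replicate block none was called either, against 0.936% of all genes. The differences ran from -0.24 to 0.28 with a median of -0.07, and the median of all genes was -0.03. Hspe1 had the lowest difference, -0.24 ± 0.19 (SE) with a 95% interval of -0.65 to 0.17, and Dnajb1 the highest, 0.28 ± 0.59. In 3 of the 9, Hsph1, Hspa8 and Hspa4, the 3 arrays with IFN-γ were all below the 3 without it, by a mean of 0.02 to 0.08; 5.71% of all genes were apart in that direction.

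Adding GW to IFN-γ was followed by higher levels of Hsph1, which rose 2.37-fold, and all 9 chaperones had a positive difference. The median of the 9 differences was 0.48, against 0.003 for all genes, of which 50.8% were positive. The members were chosen with earlier results of these data known. Medians and counts of members set beside all genes are therefore description, not a test. Hsph1 was the only member that passed the test, where 0.633% of all genes rose. With the replicate block Dnajb1 passed as well, where 3.64% of all genes rose. When number 1 was set against the other numbers as a batch, Bag3 was the third to pass, where 4.57% of all genes rose. The 3 arrays with GW were all above the 3 with IFN-γ alone in 4 of the 9, Hsph1, Hspa8, Hsp90ab1 and Hspa4, against 8.05% of all genes. Within title numbers, 7 of the 9 were higher in all 3 numbers, against 20% of all genes.

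**Figure D2:**
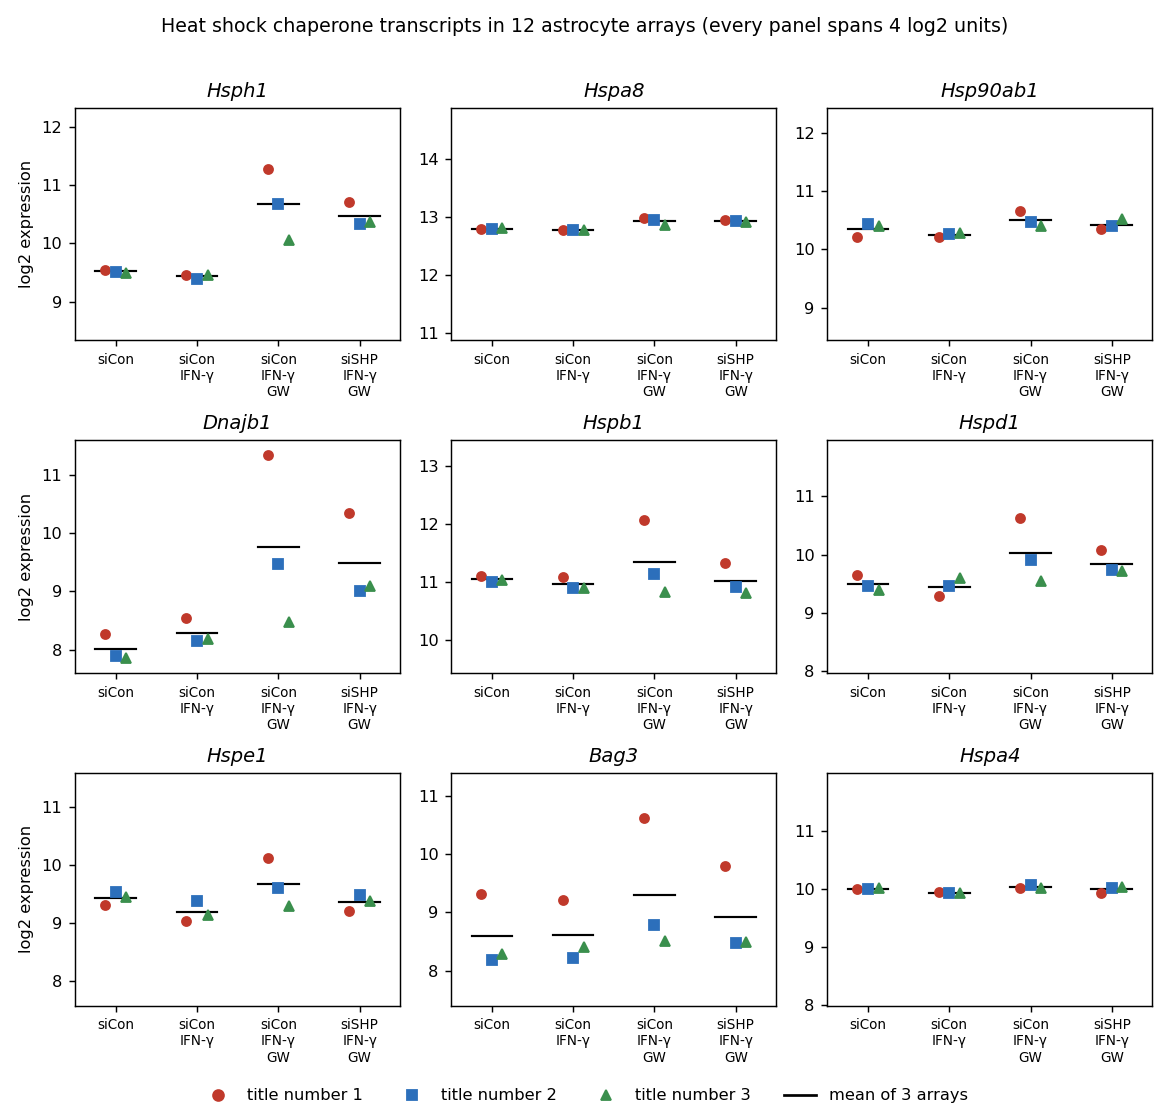
Log2 expression of the 9 chaperones on 12 arrays, by group; symbols mark the title number and bars the mean of 3 arrays, and every panel spans the same height. Hsph1 stood higher on every array of both GW groups. Dnajb1 had higher means there, but its siCon_IFNg_GW array numbered 3 lay below siCon_IFNg number 1. Bag3 stood higher on the arrays numbered 1 in every group, and Hspa8 and Hspa4 spanned 0.22 and 0.13 log2 units in all.

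Hsph1 encodes HSP105, which exchanges nucleotide on HSP70 and helps pull aggregates apart. On the arrays numbered 1, 2 and 3 its log2 level was 9.55, 9.52 and 9.50 in siCon and 9.46, 9.38 and 9.46 in siCon_IFNg. It was 11.28, 10.69 and 10.06 in siCon_IFNg_GW and 10.72, 10.33 and 10.37 in siSHP_IFNg_GW. Both groups without GW were tight, and every array with GW lay above every array without it. Against siCon_IFNg the difference in siCon_IFNg_GW was 1.24 ± 0.24 (SE; adjusted p = 0.0428 in limma). By title number it was 1.83, 1.30 and 0.60. With the replicate block the adjusted p was 0.0065, and without the arrays numbered 1 the difference was 0.95 with an adjusted p of 0.011 in limma, where 6.47% of all genes rose. Hsph1 lost its call when the arrays were centred on their medians (1.23; adjusted p = 0.0755 in limma) and when only the 6 arrays compared entered limma (adjusted p = 0.277). It also lost it in limma without siCon_IFNg_GW number 1 (adjusted p = 0.0502), siCon_IFNg_GW number 2 (0.178), siCon_IFNg number 2 (0.162) or siCon_IFNg number 3 (0.146), with differences of 0.94 to 1.26.

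Dnajb1 encodes HSP40, the J-domain protein that hands substrates to HSP70 and a classic target of HSF1. Its levels for numbers 1, 2 and 3 were 8.27, 7.90 and 7.85 in siCon and 8.54, 8.15 and 8.18 in siCon_IFNg, then 11.35, 9.47 and 8.48 in siCon_IFNg_GW and 10.35, 9.01 and 9.09 in siSHP_IFNg_GW. The lowest siCon_IFNg_GW array, number 3, lay just below the highest siCon_IFNg array, number 1, but each lay above its partner of the same number. The difference had the largest size of the 9, 1.48 ± 0.59 (SE), and did not pass on group means (adjusted p = 0.353 in limma). Within numbers it was 2.81, 1.32 and 0.31, and with the replicate block it passed narrowly, with an adjusted p of 0.049 in limma. Without the arrays numbered 1 it was 0.81, with an adjusted p of 0.0903.

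Bag3 encodes a cochaperone that releases HSP70 substrates and directs them to autophagy. Its levels for numbers 1, 2 and 3 were 9.32, 8.18 and 8.28 in siCon, 9.21, 8.22 and 8.41 in siCon_IFNg, 10.61, 8.79 and 8.51 in siCon_IFNg_GW and 9.80, 8.48 and 8.49 in siSHP_IFNg_GW. In each group the array numbered 1 stood apart, higher than both others. The GW difference of 0.69 ± 0.57 (SE) was within that spread (adjusted p = 0.764 in limma). Inside numbers it was 1.40, 0.56 and 0.10, and its adjusted p was 0.063 with the replicate block and 0.042 with number 1 as a batch.

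Hspb1 encodes HSP27, a small heat shock protein that holds unfolding proteins and binds actin filaments. Its levels for numbers 1, 2 and 3 were 11.10, 11.00 and 11.04 in siCon, 11.09, 10.91 and 10.90 in siCon_IFNg, 12.06, 11.14 and 10.84 in siCon_IFNg_GW and 11.33, 10.91 and 10.82 in siSHP_IFNg_GW. Only the siCon_IFNg_GW array numbered 1 was well above the rest, and the groups overlapped. The difference of 0.38 ± 0.26 (SE) did not pass (adjusted p = 0.672 in limma), and by number it was 0.97, 0.23 and -0.06.

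Hspd1 and Hspe1 encode HSP60 and HSP10, the barrel and the lid of the mitochondrial chaperonin. Hspd1 for numbers 1, 2 and 3 was at 9.65, 9.47 and 9.38 in siCon, 9.29, 9.46 and 9.60 in siCon_IFNg, 10.64, 9.91 and 9.55 in siCon_IFNg_GW and 10.08, 9.74 and 9.71 in siSHP_IFNg_GW. Hspe1 was at 9.31, 9.55 and 9.45 in siCon, 9.05, 9.39 and 9.14 in siCon_IFNg, 10.13, 9.61 and 9.29 in siCon_IFNg_GW and 9.21, 9.48 and 9.39 in siSHP_IFNg_GW. Both were highest on the siCon_IFNg_GW array numbered 1, and in both the siCon_IFNg_GW array numbered 3 lay within the range of the arrays without GW. The other arrays with GW lay above all arrays without it in Hspd1, and in Hspe1 only siCon_IFNg_GW number 2 did. The GW differences were 0.58 ± 0.23 (SE) for Hspd1 and 0.48 ± 0.19 (SE) for Hspe1, with adjusted p of 0.344 and 0.329 in limma. By number they were 1.34, 0.45 and -0.04 for Hspd1 and 1.08, 0.22 and 0.15 for Hspe1. A second row paired with Hspd1 alone gave 0.58 (adjusted p = 0.275 in limma).

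Hsp90ab1 encodes the constitutive cytosolic HSP90, and Hspa8 the constitutive HSP70 known as HSC70. Hsp90ab1 for numbers 1, 2 and 3 was at 10.22, 10.43 and 10.40 in siCon, 10.21, 10.27 and 10.28 in siCon_IFNg, 10.66, 10.47 and 10.40 in siCon_IFNg_GW and 10.35, 10.41 and 10.53 in siSHP_IFNg_GW. Hspa8 was at 12.80, 12.79 and 12.81 in siCon, 12.78, 12.77 and 12.77 in siCon_IFNg, 12.99, 12.95 and 12.86 in siCon_IFNg_GW and 12.95, 12.93 and 12.92 in siSHP_IFNg_GW. In both genes the siCon_IFNg_GW arrays stood above all siCon_IFNg arrays. The GW differences were small, 0.26 ± 0.10 (SE) for Hsp90ab1 and 0.16 ± 0.07 (SE) for Hspa8, and neither passed (adjusted p = 0.321 and 0.450 in limma). Hspa8 was near the top of the scale, since the highest value in the whole table was 13.43. Hspa4, another HSP110, had the smallest GW difference: 10.002, 9.993 and 10.022 in siCon, 9.95, 9.93 and 9.94 in siCon_IFNg, 10.02, 10.06 and 10.02 in siCon_IFNg_GW and 9.94, 10.01 and 10.03 in siSHP_IFNg_GW. Its GW difference was 0.10 ± 0.07 (SE; adjusted p = 0.723 in limma), with a 95% interval of -0.06 to 0.25.

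Probes for Hspa8, Hsp90ab1, Hspd1 and Hspe1 may also read near-identical processed pseudogenes, so these values are less certain. A further row paired with Hspa8, Hspa8-ps14 and Haus8l2 together had a GW difference of 0.32, and the shared row of Hsp90aa1 and Hsp90aa1-ps17 one of 0.40 (adjusted p = 0.278 and 0.306 in limma). Neither row was counted among the 9.

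The GW differences were uneven over the title numbers. In 8 of the 9 genes the pair numbered 1 gave the largest difference, as it did in 33.2% of all genes, and the exception was Hspa4. The median of the 9 was 1.08 in number 1, 0.23 in number 2 and 0.10 in number 3, and 0.18 without number 1. A model with a separate GW difference for number 1 was fitted to size this gap. It has only 1 array per group for number 1 and assumes that number 1 varies like the others. The model was added after seeing the data, so its p-values do not allow for the choice of number 1. The difference was larger in number 1 than in numbers 2 and 3 for Bag3 by 1.07 (adjusted p = 0.031 in limma), Hspd1 by 1.14 (0.032) and Hspb1 by 0.89 (0.048), against 1.31% of all genes. For Dnajb1 the gap was 2.00 (adjusted p = 0.065 in limma), for Hspe1 0.90 (0.086) and for Hsph1 0.87 (0.189). No member passed this test in the other 3 comparisons, where 2.43%, 0.721% and 0.517% of all genes did for IFN-γ, SHP siRNA and SHP siRNA with GW against IFN-γ. On 1 array, siCon_IFNg_GW number 1, 8 of the 9 chaperones had their highest level of all 12 arrays, and Hspa4 had its own on number 2 of that group. The share of all genes that were highest on that array of number 1 was not taken.

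**Figure D3:**
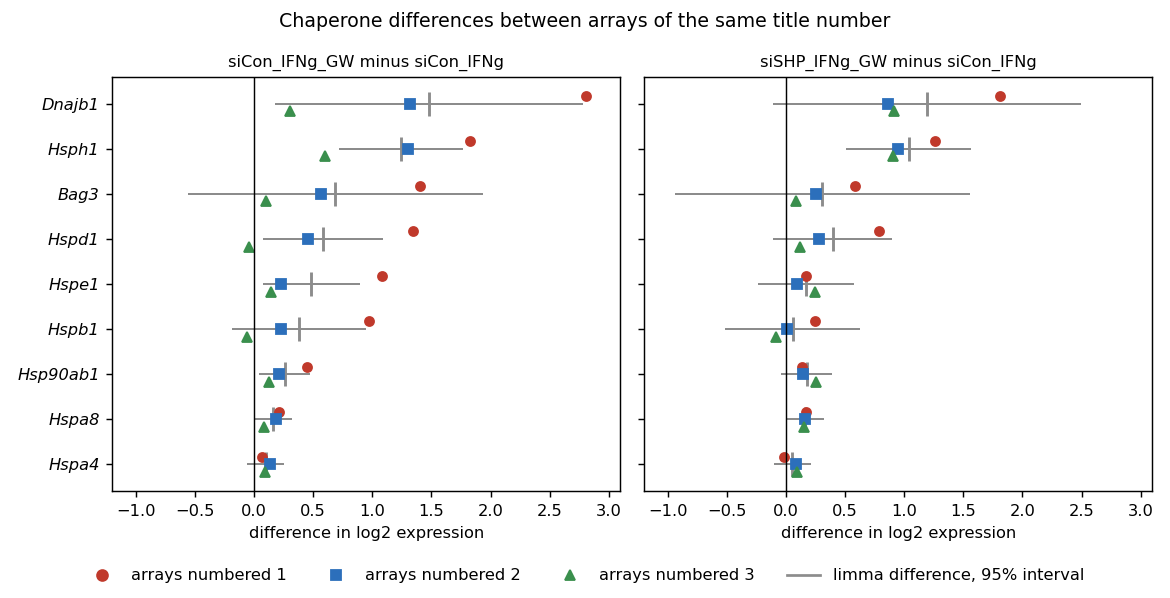
Differences in log2 expression from siCon_IFNg, within each title number (symbols), with limma's difference and its 95% interval (grey), for siCon_IFNg_GW (left) and siSHP_IFNg_GW (right). Number 1 lies furthest right for 8 of the 9 genes in the left panel, and in the right panel the 3 numbers lie closer together for each gene but Hspa4.

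Levels also differed between the numbers over all 4 groups. There, Bag3 was higher on the arrays numbered 1 than on the others by 1.32 ± 0.14 (SE; adjusted p = 6.12e-05 in limma), Dnajb1 by 1.11 ± 0.29 (0.0117) and Hspb1 by 0.46 ± 0.14 (0.0222). These were 3 of the 9, and 20.4% of all genes were higher in number 1. Number 1 was chosen for this contrast because earlier results of these data showed it standing apart. Its p-values do not allow for that choice, and the fit with number 1 as a batch singles out the same number. In Bag3, Dnajb1 and Hspb1 the array numbered 1 was the highest of each group, and its lead was widest in siCon_IFNg_GW. Without that group Hspb1 lost its call, at 0.25 (adjusted p = 0.064 in limma), Dnajb1 kept it at 0.69 (0.0162) and Bag3 at 1.099 (0.000135). Without siSHP_IFNg_GW both Hspb1 (0.45; 0.0921) and Dnajb1 (1.05; 0.0667) lost theirs. Hsph1 differed by 0.34 ± 0.15 (adjusted p = 0.094 in limma), Hspd1 by 0.31 ± 0.15 (0.121), both called only with centred arrays or, for Hspd1, without siCon_IFNg (0.49; 0.019), and Hspa8, Hsp90ab1, Hspe1 and Hspa4 by -0.04 to 0.03. In the same arrays numbered 1, 5 of 7 markers of meningeal and vascular cells were lower (median -1.83), 4 of 7 astrocyte markers were lower and 1 higher, and 6 of 11 microglial markers were higher and 1 lower. Over all 18166 genes, 3698 were higher and 3126 lower. The part of these markers in the chaperone values was not tested.

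The SHP siRNA comparison gave no call for any chaperone. Between siSHP_IFNg_GW and siCon_IFNg_GW 0% of the 18166 genes passed in limma, where 416 had an unadjusted p under 0.05, and none of the 9 chaperones was among those. Their differences ran from -0.38 to 0.002 with a median of -0.21, and 8 of 9 were negative. Over all genes the median was -0.02 and 42.7% were positive. The smallest unadjusted p among the 9 was 0.12 in limma. Hsph1 differed by -0.21 ± 0.24 (SE), with a 95% interval of -0.73 to 0.32, and Dnajb1 by -0.28 ± 0.59, with an interval of -1.59 to 1.02. These intervals come from the fit on group means, without the title number. There the interval of Dnajb1 allows a fall as large as its GW difference of 1.48, while that of Hsph1 does not reach 1.24 in either direction. With the replicate block the SE of Dnajb1 was 0.38, so its interval is narrower in that fit. Bag3 had the lowest value, -0.38 ± 0.57, and Hspa8 the highest, 0.002 ± 0.073. All 9 were lower with SHP siRNA in numbers 1 and 2, as 29.2% of all genes were. In number 3, 7 of the 9 were higher, a share not taken over all genes. The medians by number were -0.57, -0.17 and 0.10, and without number 1 the median was -0.02, no member passing where 1.47% of all genes did. In none of the 9 were the groups apart, against 6.47% of all genes.

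Cells with SHP siRNA, IFN-γ and GW gave a further look at GW against the same siCon_IFNg arrays, though siRNA and GW both differ there. All 9 chaperones again had a positive difference, as 45.9% of all genes did. The shared siCon_IFNg arrays mean that this is not a separate replication. Hsph1 was 2.05-fold higher, 1.04 ± 0.24 (SE), without a call (adjusted p = 0.129 in limma), where 0.242% of all genes rose. With the replicate block Hsph1 passed (adjusted p = 0.023 in limma), where 1.95% of all genes rose. It also passed without the arrays numbered 1, at 0.92 (adjusted p = 0.022 in limma), where 4% rose. The Hsph1 differences by number were 1.26, 0.94 and 0.90, and those of Dnajb1 were 1.81, 0.86 and 0.91. The 3 arrays were all above those of siCon_IFNg in 5 of the 9, Hsph1, Hspa8, Hsp90ab1, Dnajb1 and Hspd1, against 6.33% of all genes. In 7 of the 9 the level was higher in all 3 numbers, against 17.1% of all genes. The median difference of the 9 was 0.18, against -0.02 for all genes. Without number 1 that of the 9 was 0.17.

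The group with the highest mean was the same in most chaperones. In Hsph1, Dnajb1, Hspb1, Hspd1, Hspe1, Bag3, Hsp90ab1 and Hspa4 the highest mean was that of siCon_IFNg_GW, while in Hspa8 both GW groups stood at 12.93. Neither the 2 groups without GW nor the 2 with it were told apart by the test for any of the 9; in Hsph1 the means were 9.52 and 9.43 against 10.68 and 10.47.

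The 9 genes varied together, as far as 12 arrays in 4 groups can show. After the mean of each title number was subtracted, the Pearson correlations of the 36 pairs ran from 0.36 to 0.98 with a median of 0.83, and 21 were over 0.8. Hsph1 and Hspa8 had the highest, 0.98, although Hsph1 spanned 1.90 log2 units over the arrays and Hspa8 only 0.22. Hsph1 and Dnajb1 followed with 0.97, as did Hspd1 and Bag3. The mitochondrial partners Hspd1 and Hspe1, which share a promoter region, correlated at 0.79, less than Hspe1 did with Hspb1 (0.92). Hspa4 had the lowest values, 0.36 to 0.62. The points share the arrays and the GW difference, so no test was made. The share of other gene pairs over 0.8 was not taken. On siCon_IFNg_GW number 1, 8 of the 9 genes had their highest level, a share not taken over all genes. The part of that array in the correlations was not tested.

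**Figure D4:**
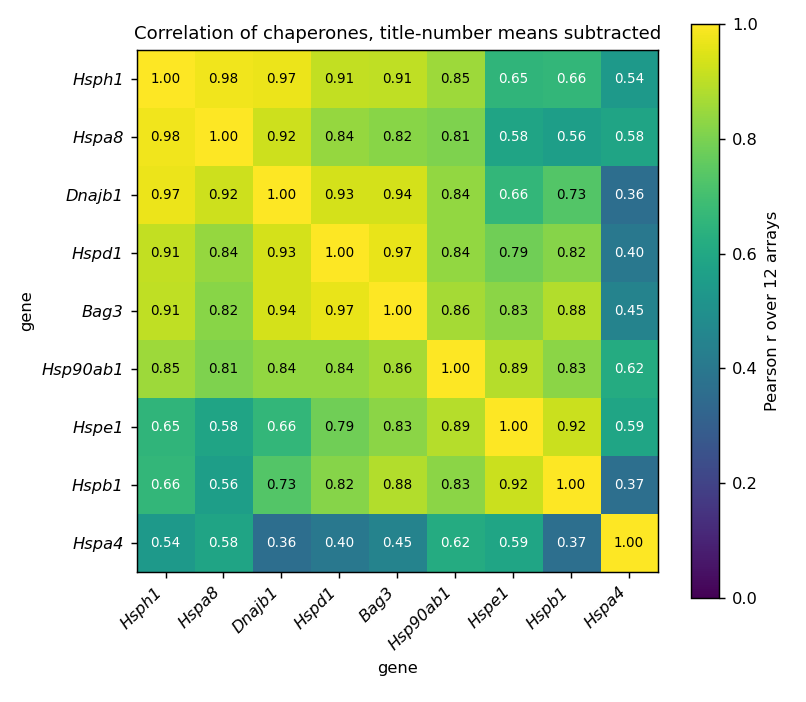
Pearson correlation between the 9 chaperones over 12 arrays, after the mean of each title number was subtracted. Hsph1, Hspa8, Dnajb1, Hspd1 and Bag3 correlate at 0.82 or more with each other, Hspe1 pairs with Hspb1 (0.92), and Hspa4 stands apart.

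The genes most like Hsph1 in this measure, among the 18157 others, were Zfand2a (0.99), Garin4, Hist2h2bb, H2bc8 and Dnaja1 (0.97). Zfand2a, which encodes AIRAP, a proteasome-associated zinc-finger protein induced by arsenite, was at 8.52, 8.09 and 8.29 in siCon_IFNg and 10.96, 9.53 and 9.09 in siCon_IFNg_GW for numbers 1, 2 and 3. Its GW difference of 1.56 ± 0.38 (SE) did not pass on group means (adjusted p = 0.109 in limma) and passed with the replicate block (0.011). Garin4 rose (adjusted p = 0.014 in limma) to 7.38, 7.24 and 5.93, and no size is given because its 3 siCon_IFNg values lay under the background. The histone H2B genes Hist2h2bb and H2bc8 did not pass on group means and passed with the block (0.0014 and 0.0011). Most like the mean of the 9 were Arc (0.98), Zfand2a, Tmem88, Fosb and Cryab (0.97). Arc and Fosb are immediate-early genes of stimulated cells, and Fosb was at 6.59, 6.14 and 6.19 in siCon_IFNg and 10.45, 7.84 and 7.22 in siCon_IFNg_GW, again with number 1 highest. Cryab, the small heat shock protein αB-crystallin abundant in astrocytes, was at 9.57, 10.10 and 10.06 in siCon_IFNg and 11.52, 10.86 and 10.33 in siCon_IFNg_GW. Its difference of 0.99 ± 0.28 did not pass (adjusted p = 0.165 in limma).

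Other chaperone and protein quality control genes were read by list. Of 17 measured J-domain proteins and HSP70 cofactors, Dnaja1 alone rose with GW, by 0.70 ± 0.14 (SE; adjusted p = 0.0457 in limma), where 0.633% of all genes rose. No other gene of the 7 lists, 96 genes in all, passed on group means. Dnaja1 encodes a type I partner of HSP70 and was at 10.91, 11.02 and 10.71 in siCon_IFNg and 11.79, 11.69 and 11.25 in siCon_IFNg_GW. With the replicate block 4 of the 17 rose, Dnaja1, Dnaja4 (0.62), Dnajb4 (1.15) and Dnajb5 (0.77), where 3.64% of all genes rose. Dnajb4, a close relative of Dnajb1, was higher in every number and, without number 1, by 1.34. The median of the 17 was 0.08.

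Among 11 HSP90 cochaperones and immunophilins, the block gave rises of Ahsa2 (0.94), an activator of the HSP90 ATPase, and Chordc1 (0.76), which binds HSP90. Sugt1 fell (-0.37) in that fit. Of all genes 3.64% rose with the block and 2.91% fell. Of 16 heat shock factors and other HSP70 and small heat shock protein genes, the block called Hsbp1 alone, which fell by 0.38 on the log2 scale and encodes a protein that binds HSF1 trimers. Hsf1 itself differed by 0.24 ± 0.23 (SE; adjusted p = 0.807 in limma). The stress-inducible HSP70 genes Hspa1a and Hspa1b had no row of their own and were not analysed here. Of 15 ubiquitin and proteasome genes, the block called Psma1, Psmb5 and Psmc1, subunits that fell by 0.35, 0.33 and 0.30, where 2.91% of all genes fell, and the list's median was -0.18. None of 11 CCT chaperonin and prefoldin genes, 17 endoplasmic reticulum chaperones and 9 other mitochondrial chaperones and proteases passed in either fit; their medians were -0.01, 0.09 and -0.06. Hspa5, the endoplasmic reticulum HSP70 known as BiP, differed by 0.30 ± 0.12 (adjusted p = 0.373 in limma) and rose without number 1, by 0.46 (0.025).

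**Figure D5:**
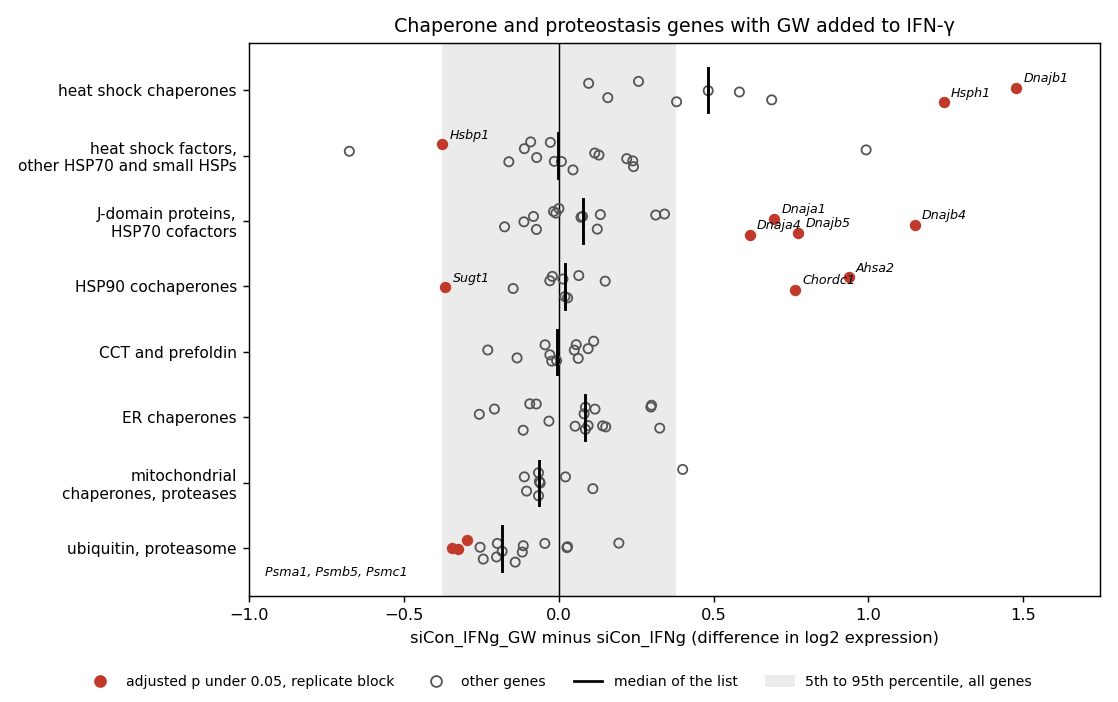
GW differences (siCon_IFNg_GW minus siCon_IFNg, log2) of the 9 chaperones and of 7 lists of chaperone and protein quality control genes; filled symbols passed limma with the replicate block, black bars are medians and the grey band holds the 5th to 95th percentile of all genes (-0.37 to 0.38). The chaperones' median is 0.48, and those of the lists run from -0.18 to 0.09. Members and lists were chosen with earlier results of these data known.

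Some of these genes carry heat shock element letters too. Dnaja1 and Chordc1 had a 3-unit match just after the start, at 10 to 22 and within 11 to 33, and Serpinh1 and Cct4 had one at -35 to -23 and at 26 to 38. Dnaja4, Dnajb5 and Ahsa2, which also rose with the replicate block, had no match in their windows. Over the lists, 12.5% to 33.3% of the windows held a 2-unit match, against 13.6% of the windows of genes on the array. Serpinh1, the collagen chaperone HSP47, differed by 0.33 ± 0.13 (SE) and Cct4 by 0.05 ± 0.10 with GW, and neither passed. Among the 9 chaperones, GW differences were 0.16 to 1.24 in the 4 with a 3-unit match, 0.38 to 1.48 in the 3 with 2-unit matches alone, and 0.10 and 0.26 in the 2 with none. These ranges overlap, and whether the matches bear on the GW differences was not tested.

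Most microglial markers were lower with GW. The mean level of 11 microglial markers was 8.84 to 8.97 on the siCon_IFNg arrays and 8.41 to 8.55 on the siCon_IFNg_GW arrays, with a median difference of -0.45. None of the 11 was at or under background, and 1 of them had a positive difference. With the replicate block 6 (Aif1, C1qa, C1qb, C1qc, Itgam and Tyrobp) fell, against 2.91% of all genes, and none passed on group means. Without the arrays numbered 1, 7 fell and 1 rose, where 905 and 1176 of all 18166 genes did. The astrocyte markers had a median difference of -0.07, with none called. In these bulk cultures fewer cells of a type and less RNA per cell cannot be told apart, and the part of the microglial markers in the chaperone differences was not tested.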

How the data were processed

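The deposited table held log2 values of 36685 rows on 12 arrays (1.01 to 13.43, 0 missing), per the labels from Trizol-extracted RNA and biotin-labelled sense cDNA. How the authors corrected background, summarised and normalized these log2 values was not given in the sources used here; their range showed the log base. In the platform annotation 18511 rows had 1 gene, 575 several and 17599 none. Of the first, 18394 were matched by Entrez ID to RefSeq (GRCr8). For 291 genes with several rows the highest mean was used.

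Group means over all 12 arrays were fitted with limma 3.58.1 (lmFit, contrasts, eBayes) in R 4.3.3 and adjusted by Benjamini-Hochberg; the script was tested on simulated data. The contrast of number 1 with numbers 2 and 3 came from groups plus number, and number 1 was chosen for it with earlier results of these data known. Python 3.11.15 and matplotlib 3.10.9 searched promoters and drew figures. The number of arrays limits the precision.

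Deviations from group means correlated between same-numbered arrays by 0.63 to 0.77 (number 1), 0.48 to 0.58 (2) and 0.43 to 0.55 (3). Differences within numbers were therefore given as well. The main fit, which defined the calls, had no term for the number. Alternatives were the replicate block, number 1 as a batch, median centring, genes above background (12433), only the arrays compared, another Hspd1 row, and leaving out number 1, each array or, for the number contrast, each group. The separate GW difference for number 1 was added after seeing the data.

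The members and lists were chosen with earlier results of these data known. All members were named, with up to 6 called list genes of smallest p per comparison, the 5 genes most like Hsph1 and the 5 most like the members' mean, and Nr0b2. The number contrast thus named Hspb6 (0.98) and Bag6 (0.46), higher in number 1, and Psmb5 (-0.67), Tcp1 (-0.50), Hsbp1 (-0.47) and Psmd2 (-0.40), lower. Genes called with the replicate block alone, Hsf1, Hspa5, Serpinh1 and Cct4 were named after their values were seen. Of 6 oligodendrocyte and 6 neuronal markers, 0 passed under GW on group means; 2 neuronal markers, Tubb3 and Snap25, and 2 meningeal and vascular ones, Lum and Cldn5, were at or under background.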

Additional observations from a re-analysis of the deposited data

Results flagged for a closer look

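In 3 chaperones the GW difference (siCon_IFNg_GW minus siCon_IFNg) was not the same in title number 1 as in numbers 2 and 3, by limma's test of that gap over all 18166 genes. For Hspd1 the gap was 1.14 ± 0.21 (SE; adjusted p = 0.032 in limma), with differences of 1.34, 0.45 and -0.04 in numbers 1, 2 and 3. For Bag3 it was 1.07 ± 0.20 (0.031), with differences of 1.40, 0.56 and 0.10. For Hspb1 it was 0.89 ± 0.19 (0.048), with differences of 0.97, 0.23 and -0.06. Number 1 has 1 array per group, so the spread behind these tests comes from numbers 2 and 3. The tests were added after seeing the data, and their p-values do not allow for the choice of number 1. In all 3 genes the siCon_IFNg_GW array numbered 1 held the highest level of the 12 arrays.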

How the results depend on the processing

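The replicate block, which pairs arrays by title number, raised the genes called from 161 to 1189 for GW, from 22 to 170 for IFN-γ and from 55 to 559 for siSHP_IFNg_GW against siCon_IFNg. Chaperones called went from 1 to 2 and from 0 to 1 in the first and last of these, and no other call of a chaperone changed. Number 1 as a batch gave 1558, 232 and 795 genes, 3 and 1 chaperones in the first and last, and 1 gene for SHP siRNA. Centring gave 79 genes and 0 chaperones for GW, 30 genes for siSHP_IFNg_GW, and 5 chaperones against 3 in the number contrast; it moved the median of all genes there from 0.03 to 0.12 and the share of higher calls from 54.2% to 72.3%, and that share for IFN-γ from 68.2% to 80%. Only the arrays compared gave 4, 7 and 6 genes, with 0 chaperones for GW. Genes above background alone gave 96 for siSHP_IFNg_GW. Leaving out arrays gave 27 to 2081 genes and 0 to 1 chaperones for GW, 2 to 856 genes for IFN-γ, 0 to 1129 genes and 0 to 1 chaperones for siSHP_IFNg_GW, and 0 to 267 genes for SHP siRNA, the highest gene count each time without number 1. Leaving out siSHP_IFNg_GW left 1 chaperone in the number contrast.

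Changes of sign met only differences without a call in the main setting. In the number contrast Hsp90ab1 became 0.058 and Hspa4 0.068 with centring, Hsp90ab1 0.017 without siCon, and Hspe1 -0.21 without siCon_IFNg_GW (adjusted p = 0.047 in limma). With number 1 or single arrays left out, IFN-γ differences ran from -0.28 to 0.38 in Bag3 and from -0.12 to 0.10 in Hspd1. Those of siSHP_IFNg_GW ran from -0.13 to 0.61 in Bag3 and from -0.10 to 0.16 in Hspb1. Those of SHP siRNA ran from -0.82 to 0.27 in Bag3, -0.93 to 0.51 in Dnajb1, -0.58 to 0.033 in Hspb1, -0.43 to 0.11 in Hspd1, -0.51 to 0.096 in Hsph1, -0.14 to 0.030 in Hsp90ab1 and -0.037 to 0.030 in Hspa8; the highest values of the first 5 came without siCon_IFNg_GW number 1. The cause of these changes was not tested. With 3 arrays a group and SEs of 0.07 to 0.59, small differences were not detectable.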
